A study of Mus musculus with 36 samples.

Results

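The 9 genes described here encode ErbB receptors, their ligands and their feedback inhibitors, and were taken by symbol from the 24421 genes counted in each of 36 liver libraries. They are the receptors Egfr, Erbb2 and Erbb3, the ligands Egf, Hbegf, Tgfa and Areg, and the inhibitors Errfi1 and Lrig1. All 36 mice were male C57BL/6J mice that had first eaten, for 12 weeks, CDAHFD, a fat-rich diet of amino acids without added choline that induces steatohepatitis with fibrosis. In the first experiment the mice then spent 2 weeks on HFD, a high-fat diet, and received Fc at 4.3 mg/kg (n = 10) or Fc(mML1)B3 at 5 mg/kg (n = 10) under the skin once a week. In the second they returned to a standard diet for 10 days and received the same doses on days 1, 4 and 7, with 9 mice given Fc and 7 given Fc(mML1)B3. Fc(mML1)B3 is an antibody Fc fragment with a grafted macrocyclic peptide that binds and activates Met, the receptor of hepatocyte growth factor, and Fc without the peptide was the control. The mice were 7 weeks old on purchase and were acclimated for 1 week in the HFD experiment. Each library came from 1 mouse. All 4 groups, the controls included, had the same CDAHFD feeding, and mice taken before treatment were not analysed here.

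ErbB receptors are tyrosine kinases of the cell surface that pair with each other when a ligand with an EGF-like domain binds. EGFR is the main ErbB receptor of hepatocytes, ErbB2 has no ligand of its own and acts as a partner, and ErbB3 binds neuregulins but has little kinase activity. In the liver the pathway is known for hepatocyte survival and regrowth after injury. The ligands are made as membrane proteins and are released by ADAM proteases. MIG6, the product of Errfi1, binds the active kinase domain and blocks it, and its gene is itself induced by ErbB signalling. LRIG1, a leucine-rich repeat protein of the membrane, lowers the amount of receptor.

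Library totals ranged from 14949035 to 28466853 counted reads. The hepatocyte markers Alb, Ttr, Apoa1, Tat, Hnf4a and Cps1 had at least 5856 reads in every library. Of 39 markers of 7 liver and blood cell types, Ly6g was not in the files and the other 38 had reads in all 36 libraries. At an adjusted p below 0.05, all 10 circadian clock genes examined differed between Fc(mML1)B3 and Fc mice under the HFD, against 14.8% of all genes tested. Of these, 5 were higher and 5 lower, with Arntl at a log2 fold change of 3.98 ± 0.29 (SE) and Dbp at -3.31 ± 0.33. Under the standard diet 7 of the 10 differed, 4 higher and 3 lower, against 16.1% of genes. Directions were not always the same. Arntl was above all Fc mice in all 10 Fc(mML1)B3 mice under the HFD and below the Fc median in all 7 under the standard diet. All 10 passed the test for a difference in effect between the diets, against 9.06% of genes. Of 5 glucocorticoid target genes, Fkbp5, Tsc22d3 and Zbtb16 were higher and Per1, also a clock gene, was lower with Fc(mML1)B3 under the HFD (median log2 fold change of the 5, 0.89), and Fkbp5 and Per1 were higher under the standard diet (0.55). Numbers in the file names split the libraries into sets, and no source used here says what the sets are. In the HFD experiment, Fc and Fc(mML1)B3 libraries were in different sets, so set and protein cannot be told apart there. In the standard diet experiment, Fc mice 6 to 9 shared a set with all 7 Fc(mML1)B3 mice. The part of the clock genes, the glucocorticoid targets, the markers and the sets in the results on ErbB genes was not tested, other than by the values given beside them.

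The promoters of the 4 members above 10 CPM (reads scaled to library size) that had an entry in the RefSeq table used are shown because they belong to the genes measured best. Of the 9 members, 7 matched an entry, and Erbb3 and Hbegf did not. Each sequence is the 250 bases before the RefSeq start nearest to the 5′ end of the counted gene on GRCm38.p6. That start is the 5′ end itself for Egfr and Lrig1, and lies 29 bases from it for Tgfa and 21 for Errfi1. The sequences are written 5′ to 3′ on the strand of the gene, with capitals for motif matches on either strand. They lie at chr11:16751953-16752202 on the plus strand for Egfr, chr6:86194972-86195221 on the plus strand for Tgfa, chr6:94700146-94700395 on the minus strand for Lrig1 and chr4:150854820-150855069 on the plus strand for Errfi1.
Egfr: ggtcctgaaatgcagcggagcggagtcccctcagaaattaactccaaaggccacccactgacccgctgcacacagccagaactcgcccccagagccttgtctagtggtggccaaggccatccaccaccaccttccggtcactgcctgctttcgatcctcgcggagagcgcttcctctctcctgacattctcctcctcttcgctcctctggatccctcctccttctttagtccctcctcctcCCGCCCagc
Tgfa: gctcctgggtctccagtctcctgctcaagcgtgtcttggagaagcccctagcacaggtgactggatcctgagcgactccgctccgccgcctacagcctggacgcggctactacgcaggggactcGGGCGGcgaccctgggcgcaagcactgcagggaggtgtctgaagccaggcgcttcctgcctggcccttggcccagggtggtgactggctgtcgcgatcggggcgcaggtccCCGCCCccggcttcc
Lrig1: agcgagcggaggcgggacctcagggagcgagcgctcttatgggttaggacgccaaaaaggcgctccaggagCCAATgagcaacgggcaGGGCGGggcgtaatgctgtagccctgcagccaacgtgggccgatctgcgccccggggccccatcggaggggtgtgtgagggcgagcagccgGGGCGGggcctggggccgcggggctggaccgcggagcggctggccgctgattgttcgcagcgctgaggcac
Errfi1: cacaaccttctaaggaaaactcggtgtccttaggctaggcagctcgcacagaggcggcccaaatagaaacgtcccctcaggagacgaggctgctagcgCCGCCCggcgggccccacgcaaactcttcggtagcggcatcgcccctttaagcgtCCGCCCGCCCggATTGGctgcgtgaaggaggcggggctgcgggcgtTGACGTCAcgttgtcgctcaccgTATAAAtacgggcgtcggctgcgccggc
The motifs searched were the GC box GGGCGG, the CCAAT box CCAAT, the TATA box TATAAA, the cyclic AMP response element TGACGTCA and the E-box CACGTG, which is the site of clock factors. The Errfi1 window held the response element 51 bases before this RefSeq start, a TATA box 28 bases before it, a CCAAT box, and 3 GC boxes of which 2 overlap. Of 32851 such windows over all genes, 1.546% held the response element, 12.37% the TATA box, 33.85% the CCAAT box and 32.74% the GC box. The Egfr window held 1 GC box, the Tgfa window 2, and the Lrig1 window 2 with a CCAAT box. None of the 4 held the E-box, which 6.021% of windows held. These are matches of letters and not measured binding.

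Levels are given as CPM after TMM scaling over all 36 libraries, so that the 4 groups share 1 scale. Per kilobase of counted exon, Errfi1 was the most abundant member in every group, with means of 249, 284, 326 and 375 CPM per kilobase in the HFD Fc, HFD Fc(mML1)B3, standard diet Fc and standard diet Fc(mML1)B3 groups. Egfr was the next, at 36.9, 56.1, 75.1 and 87.2. Erbb3 followed at 6.87, 5.70, 18.1 and 11.2, then Tgfa at 4.28 to 6.31 and Lrig1 at 3.93 to 5.73. Under the HFD the levels of Erbb3, at 2.32 to 13.6 CPM per kilobase in the Fc mice, spanned those of Tgfa and Lrig1 in the same mice, so their order there was within the spread between mice. Hbegf (0.465 to 0.754) and Erbb2 (0.468 to 0.657) were close to each other. Egf at 0.0708 to 0.106 and Areg at 0.0372 to 0.157 were the lowest. Egf had 0 to 20 reads per library and Areg 0 to 10, so that both were near the limit of detection in these libraries.

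**Figure D1:**
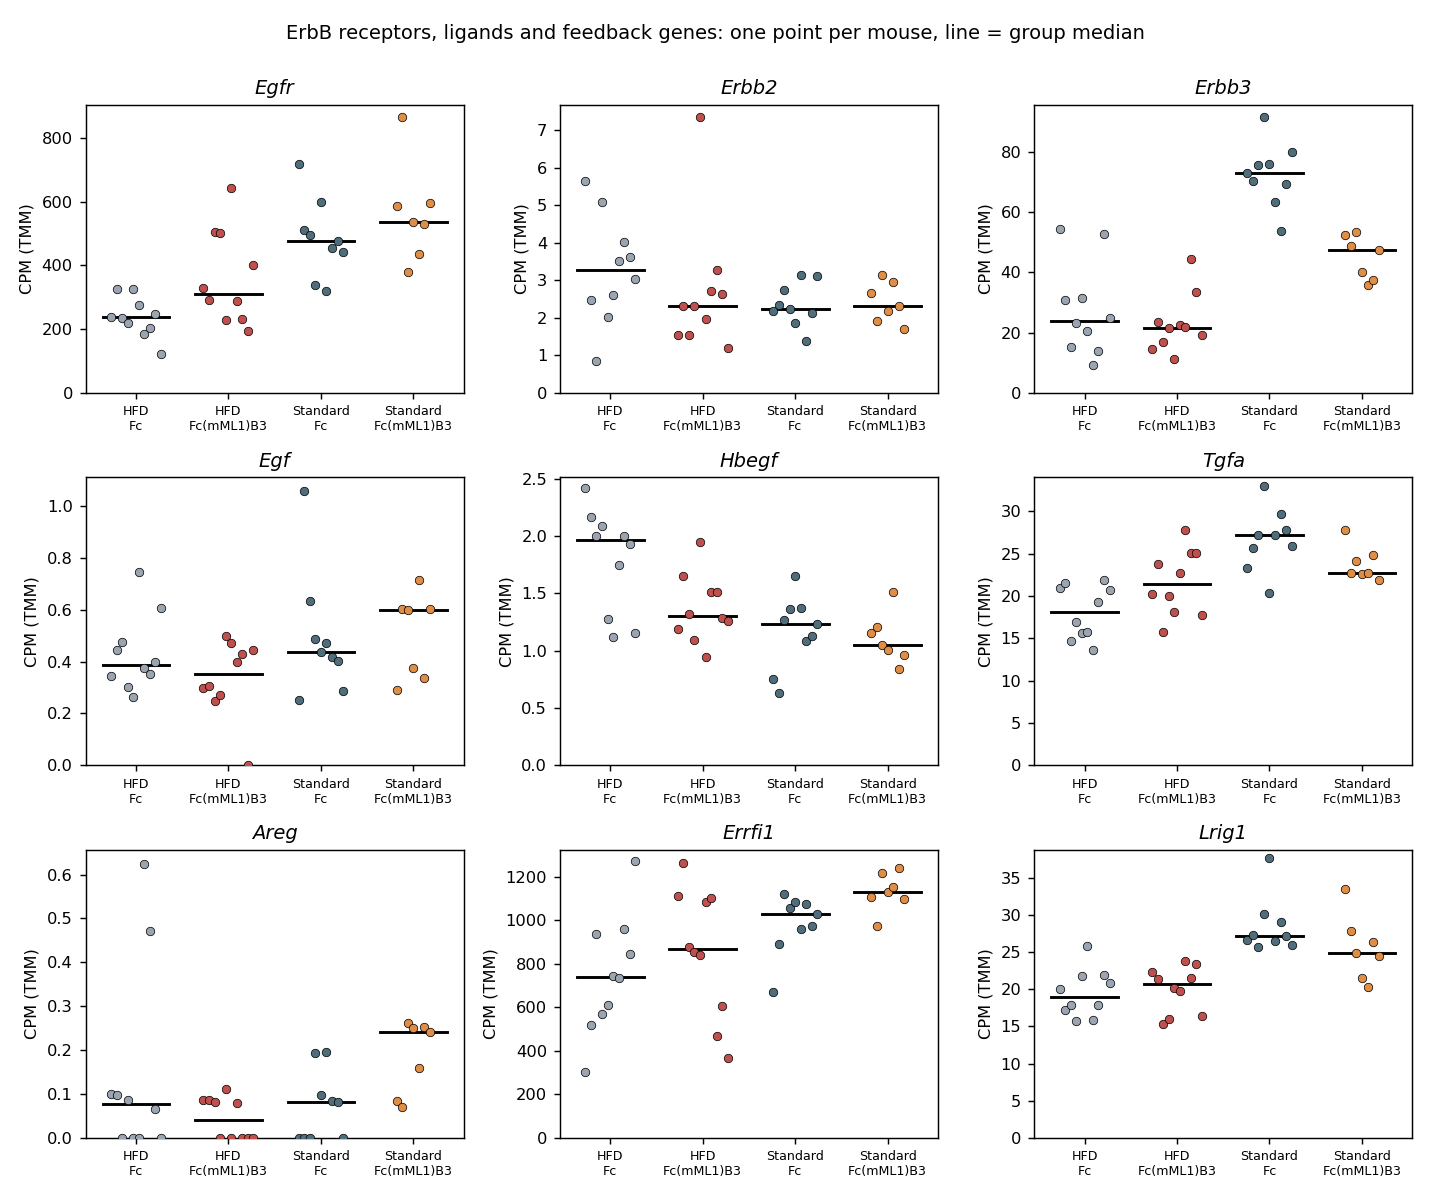
CPM after TMM scaling (vertical axes, linear from 0) of the 9 members in the 4 groups (horizontal axes), with 1 point per mouse and a line at the group median. Erbb3 of the standard diet Fc mice lies at 53.7 to 91.6 CPM, above all 7 Fc(mML1)B3 mice of that diet, while the groups overlap for the other 8 members under both diets.

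The first question was whether the Met agonist changed the transcripts of these receptors, ligands and inhibitors. Under the HFD, 1 of the 7 members that passed the filter on low counts was called at an adjusted p below 0.05, against 14.8% of all 13299 genes tested. That gene was Egfr, which was higher with Fc(mML1)B3. Under the standard diet 1 of 8 was called, against 16.1% of 13570 genes. That gene was Erbb3, which was lower with Fc(mML1)B3. Neither share stood above its background. At an adjusted p below 0.1 and over 2-fold, 0 members were called under the HFD, against 1.34% of genes, and 0 under the standard diet, against 0.604%. Erbb3 alone was called under the standard diet at an adjusted p below 0.05 and over 1.5-fold, against 2.36% of genes. Both thresholds are named in the study for that diet. No member had groups without overlap under the HFD, where 0.91% of genes did. Egf under the HFD and Areg under both diets did not pass the filter.

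Egfr lies on mm10 at chr11:16752203-16913907 and shares no exon with another gene. Under the HFD its level was 123 to 327 CPM (median 237) in the 10 Fc mice, and 195 to 644 (median 310) in the 10 Fc(mML1)B3 mice. The groups overlapped, with 5 of the 10 Fc(mML1)B3 mice above all Fc mice and 3 below the Fc median. Its log2 fold change was 0.62 ± 0.20 (SE), a 1.54-fold higher level (edgeR quasi-likelihood test, adjusted p = 0.0413). A permutation test of the mean log2 CPM gave p = 0.0233, not adjusted for the 9 members. This call was near the threshold. It was lost in 10 of 20 fits that each left out 1 mouse, namely Fc mice 1, 4, 7, 8, 9 and 10 and Fc(mML1)B3 mice 3, 4, 6 and 10, where the log2 fold change was 0.49 to 0.62 with the lowest value without Fc(mML1)B3 mouse 6. It was also lost with limma-voom (adjusted p = 0.0576), upper-quartile scaling (0.0504) and library totals alone (0.0723). Against all Fc mice, the Fc(mML1)B3 libraries 1 to 4, which form a set, gave 0.81 (adjusted p = 0.0276) and libraries 5 to 10 gave 0.49 (adjusted p = 0.187). The summed hepatocyte markers were at 74765 to 133376 CPM in the Fc mice and 69723 to 142825 in the Fc(mML1)B3 mice. Of the 6 hepatocyte markers 1, Hnf4a, was higher with Fc(mML1)B3 (0.37 ± 0.11 (SE), adjusted p = 0.0208), against 8.14% of all genes. The summed cholangiocyte markers had medians of 578 CPM with Fc and 314 with Fc(mML1)B3, and the stellate cell markers 433 and 286, with 0 of 6 genes called in each list. Of 3 neutrophil markers, 2 were lower, against 6.68% of all genes, while Retnlg was not called and had a positive log2 fold change. Of the 6 cholangiocyte markers, Spp1 alone made up 74.4 to 90.3% of the sum in each library, and the median log2 fold change of the 6 was -0.031, with 2 positive and 4 negative. Without Spp1 the medians of the sum were 71.8 and 55.1 CPM. Over the 36 mice the deviations of Egfr and of the cholangiocyte sum had r = -0.44 (permutation p = 0.0132, adjusted p = 0.0821) and rho = -0.45 (permutation p = 0.00956, adjusted p = 0.0669), with r = -0.45 without the 2 farthest mice. Within the groups r was -0.39, -0.73, 0.03 and -0.23.

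Under the standard diet, Egfr was at 320 to 719 CPM (median 475) in the 9 Fc mice and at 378 to 867 (median 536) in the 7 Fc(mML1)B3 mice. The ranges overlapped almost throughout, and the log2 fold change was 0.21 ± 0.16 (SE) with an adjusted p of 0.413. Without 1 mouse it was 0.074 to 0.30, lowest without Fc(mML1)B3 mouse 2. The difference between the 2 diets in this effect was -0.39 ± 0.28 (SE) and was not called by the interaction term (adjusted p = 0.477). So the effect on Egfr was not shown to differ between the diets.

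Erbb3 lies at chr10:128569368-128589501 on the minus strand. Under the standard diet its level was 73.3, 70.4, 75.8, 91.6, 76.2, 63.5, 53.7, 69.5 and 80.0 CPM in Fc mice 1 to 9. It was 52.4, 48.8, 53.3, 40.3, 35.9, 37.5 and 47.5 CPM in Fc(mML1)B3 mice 1 to 7. Every Fc(mML1)B3 mouse was below every Fc mouse, which was the case, in either direction, for 2.93% of the genes tested. The change on the log2 scale was -0.69 ± 0.10 (SE), a level of 0.619 of that with Fc (edgeR, adjusted p = 7.48e-05). The exact permutation test gave 8.74e-05, the smallest p that 7 mice against 9 can give. Leaving out each mouse in turn gave -0.74 to -0.64, each time called. With only the 4 Fc mice that shared a set with the Fc(mML1)B3 mice, the log2 fold change was -0.57 ± 0.12 (SE, adjusted p = 0.00994). In the fit over all 36 libraries, which takes 1 spread per gene for both diets, the value was -0.69 ± 0.25 (SE) and the call was lost (adjusted p = 0.105). The hepatocyte marker sum was 102312 to 132653 CPM with Fc and 110614 to 125682 with Fc(mML1)B3. Of its 6 genes 1, Cps1, was higher (0.19 ± 0.06 (SE), adjusted p = 0.0313), against 8.56% of all genes. Among other cell types, 1 of 6 cholangiocyte and 2 of 6 stellate cell markers (Sox9, Pdgfrb and Des) were lower, against 7.55% of all genes. Their summed levels were 229 to 501 against 179 to 414 CPM and 223 to 378 against 195 to 256 CPM. In bulk liver, fewer cells of a type and less RNA per cell cannot be told apart.

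Under the HFD, Erbb3 varied far more between mice. Of the 3 neutrophil markers in the files, S100a8 and S100a9 were lower with Fc(mML1)B3 there, while Retnlg was not called and had a positive log2 fold change. The marker sums were 4.96 to 54.3 CPM with Fc and 4.92 to 11.2 CPM with Fc(mML1)B3. Fc mice 7 and 8 had 54.3 and 47.4 CPM, and the other Fc mice 4.96 to 12.9 CPM. For Erbb3, the 10 Fc mice had 9.31 to 54.5 CPM (median 24.0), and the 10 Fc(mML1)B3 mice had 11.1 to 44.6 (median 21.6). Fc mice 1 and 9 were highest and Fc mouse 7 was lowest, and no Fc(mML1)B3 mouse lay outside the range of the Fc mice. The SD of log2 CPM was 0.81 in the HFD Fc group and 0.57 in the HFD Fc(mML1)B3 group, against 0.22 and 0.23 under the standard diet, where the median gene had 0.25, 0.26, 0.18 and 0.16 in the same order. The log2 fold change was -0.26 ± 0.27 (SE) with an adjusted p of 0.561. Without 1 mouse it was -0.41 (without Fc(mML1)B3 mouse 8) to -0.097 (without Fc mouse 1), and it was called in none of those 20 fits. The difference in effect between the diets was -0.41 ± 0.33 (SE) and was not called (adjusted p = 0.543).

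Erbb2, at chr11:98412484-98437716, shares 9 exonic bases with Mien1. It was scarce in every group. Under the HFD it was at 0.843 to 5.64 CPM (median 3.27) in the Fc mice and at 1.19 to 7.34 (median 2.31) in the Fc(mML1)B3 mice. Fc(mML1)B3 mouse 5 was far above the rest of its group, where the next highest level was 3.27 CPM. For Erbb2 the log2 fold change was -0.28 ± 0.30 (SE, adjusted p = 0.560). Without 1 mouse it was -0.58 (without Fc(mML1)B3 mouse 5) to -0.16 (without Fc mouse 1), and it was -0.75 with Fc(mML1)B3 libraries 1 to 4 alone and -0.024 with libraries 5 to 10 alone, called in none of these fits. With the standard diet its levels were 1.38 to 3.14 CPM with Fc and 1.69 to 3.15 with Fc(mML1)B3, and the log2 fold change was 0.03 ± 0.17 (SE, adjusted p = 0.927), which turned to -0.00511 with library totals alone and was -0.047 (without Fc(mML1)B3 mouse 3) to 0.10 (without Fc(mML1)B3 mouse 7) when 1 mouse was left out.

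Of the 4 member ligands, Tgfa was the most abundant. TGF-alpha binds EGFR. Under the HFD its level was 13.6 to 21.9 CPM (median 18.1) in the Fc mice and 15.7 to 27.8 (median 21.4) in the Fc(mML1)B3 mice. Of the 10 Fc(mML1)B3 mice, 5 were above all Fc mice. The log2 fold change of 0.27 ± 0.11 (SE) was not called (edgeR, adjusted p = 0.0911), except without Fc(mML1)B3 mouse 3, and the unadjusted permutation p was 0.0415. On return to standard diet the values went the other way, with 20.3 to 33.03 CPM and a median of 27.2 in the Fc mice and 21.9 to 27.8 (median 22.7) in the Fc(mML1)B3 mice. That log2 fold change was -0.17 ± 0.08 (SE) with an adjusted p of 0.161, and without Fc mouse 5 it was -0.21 (adjusted p = 0.0446). That mouse had a neutrophil marker sum of 54.2 CPM, against 5.83 to 8.80 CPM in the other 8 Fc mice. The interaction term for Tgfa was -0.42 ± 0.14 (SE) with an adjusted p of 0.0604. It passed the threshold with DESeq2 (adjusted p = 0.0309) and with upper-quartile scaling (0.0466).

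Over the 8 members in the 36-library fit, 0 were called for a difference in effect between the diets by edgeR, against 9.06% of 14105 genes (4.66% higher and 4.4% lower), and Tgfa was the 1 member with an unadjusted p below 0.05. DESeq2 called 1 and limma-voom called 0. Diet went together with experiment, number of doses, duration and file sets, which cannot be told apart.

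Hbegf encodes heparin-binding EGF-like growth factor, a ligand of EGFR and ErbB4. Under the HFD it was at 1.12 to 2.42 CPM (median 1.97) in the Fc mice and at 0.944 to 1.95 (median 1.30) in the Fc(mML1)B3 mice. All 10 Fc(mML1)B3 mice were below the Fc median, and 2 were below all Fc mice. The change on the log2 scale was -0.37 ± 0.17 (SE), which was not called after adjustment (edgeR, adjusted p = 0.158), and the unadjusted permutation p was 0.0357. The standard diet groups had 0.635 to 1.65 CPM against 0.840 to 1.51, with a log2 fold change of -0.08 ± 0.19 (SE, adjusted p = 0.821) that was -0.17 without Fc(mML1)B3 mouse 5 and -0.00367 without Fc mouse 5.

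Egf and Areg, both EGFR ligands, gave few reads. Egf, whose exons share 506 bases with 6330410L21Rik on the opposite strand, had 6 to 20 reads in the standard diet Fc mice and 7 to 18 in the Fc(mML1)B3 mice, and its log2 fold change was 0.06 ± 0.29 (SE, adjusted p = 0.923). That value was -0.045 without Fc(mML1)B3 mouse 5 and 0.26 without Fc mouse 2. Under the HFD it had 6 to 12 reads with Fc and 0 to 12 with Fc(mML1)B3. Areg had 0, 0, 0, 4, 2, 5, 2, 2 and 0 reads in standard diet Fc mice 1 to 9 and 2, 2, 7, 6, 4, 6 and 6 reads in Fc(mML1)B3 mice 1 to 7. No Fc(mML1)B3 mouse of that diet was without a read, and 4 were above all Fc mice in CPM. The unadjusted exact permutation p was 0.0179, whereas edgeR without the filter gave a log2 fold change of 1.30 ± 0.62 (SE) with an adjusted p of 0.209. Under the HFD, Areg had 10 and 8 reads in Fc mice 7 and 8 and 0 to 2 in the other 18 mice. The same 2 mice had the highest summed neutrophil markers of their group, 54.3 and 47.4 CPM against 4.96 to 12.9 CPM in the other 8 Fc mice. For Areg under the HFD, edgeR without the filter gave a log2 fold change of -1.38 ± 0.80 (SE) with an adjusted p of 0.293.

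The feedback inhibitor Errfi1, at chr4:150855091-150868880, was at 302 to 1276 CPM (median 741) in the HFD Fc mice and at 369 to 1263 (median 867) in the HFD Fc(mML1)B3 mice. The ranges were nearly the same, and the log2 fold change was 0.21 ± 0.22 (SE, adjusted p = 0.564). It was 0.11 without Fc mouse 1 and 0.33 without Fc mouse 10, the extremes of the fits without 1 mouse. It was 0.49 with Fc(mML1)B3 libraries 1 to 4 alone and -0.00448 with libraries 5 to 10 alone. In the standard diet mice the levels were tighter, at 671 to 1124 CPM (median 1031) in the Fc mice and 973 to 1242 (median 1131) in the Fc(mML1)B3 mice. Of the 7 Fc(mML1)B3 mice, 4 were above all Fc mice. The log2 fold change was 0.20 ± 0.08 (SE), which was not called (edgeR, adjusted p = 0.119), with an unadjusted exact permutation p of 0.0245. The difference in effect between the diets was 0.00577 ± 0.27 (SE, adjusted p = 0.994), a value near 0 whose sign changed with the tool.

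Lrig1, at chr6:94604529-94700145 on the minus strand, shares 124 exonic bases with Slc25a26. It was at 15.7 to 25.8 CPM with Fc and 15.3 to 23.9 with Fc(mML1)B3 under the HFD, a log2 fold change of 0.05 ± 0.10 (SE, adjusted p = 0.757) that turned to -0.037 with library totals alone and was 0.021 (without Fc(mML1)B3 mouse 7) to 0.11 (without Fc mouse 6) when 1 mouse was left out. In the standard diet mice it was at 25.7 to 37.7 CPM with Fc and 20.3 to 33.6 with Fc(mML1)B3, and 4 of the 7 Fc(mML1)B3 mice were below all Fc mice. Its log2 fold change was -0.16 ± 0.09 (SE, adjusted p = 0.280). Fc mouse 5 stood apart at 37.7 CPM, with the next Fc mouse at 30.1 CPM, and without it the log2 fold change was -0.098, the smallest of the fits without 1 mouse, while without Fc(mML1)B3 mouse 1 it was -0.24.

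**Figure D2:**
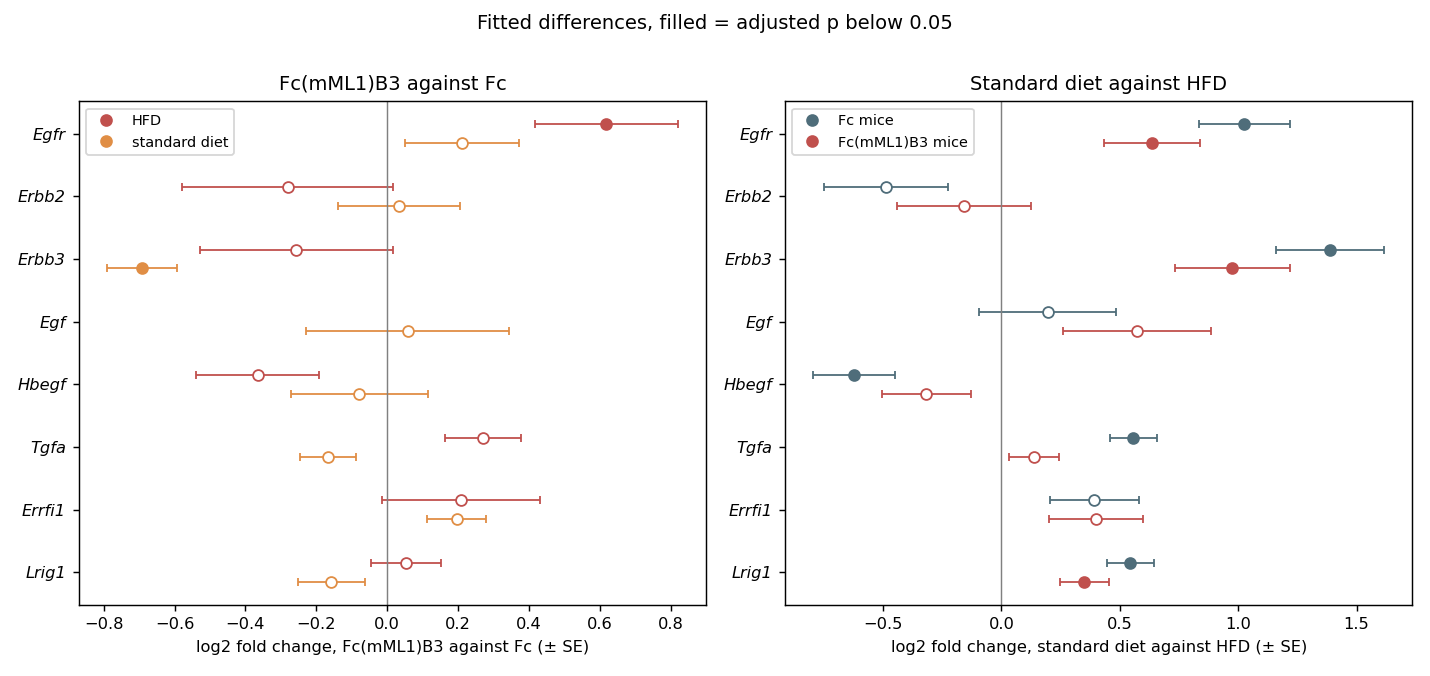
Log2 fold changes (horizontal axes, bars are ± SE) of the 8 members that passed the filter, for Fc(mML1)B3 against Fc under each diet (left) and for standard diet against HFD within each treatment (right), with filled points at an adjusted p below 0.05. On the left only Egfr under the HFD (0.62) and Erbb3 under the standard diet (-0.69) are filled, and on the right Egfr, Erbb3 and Lrig1 are filled in both treatments.

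**Figure D3:**
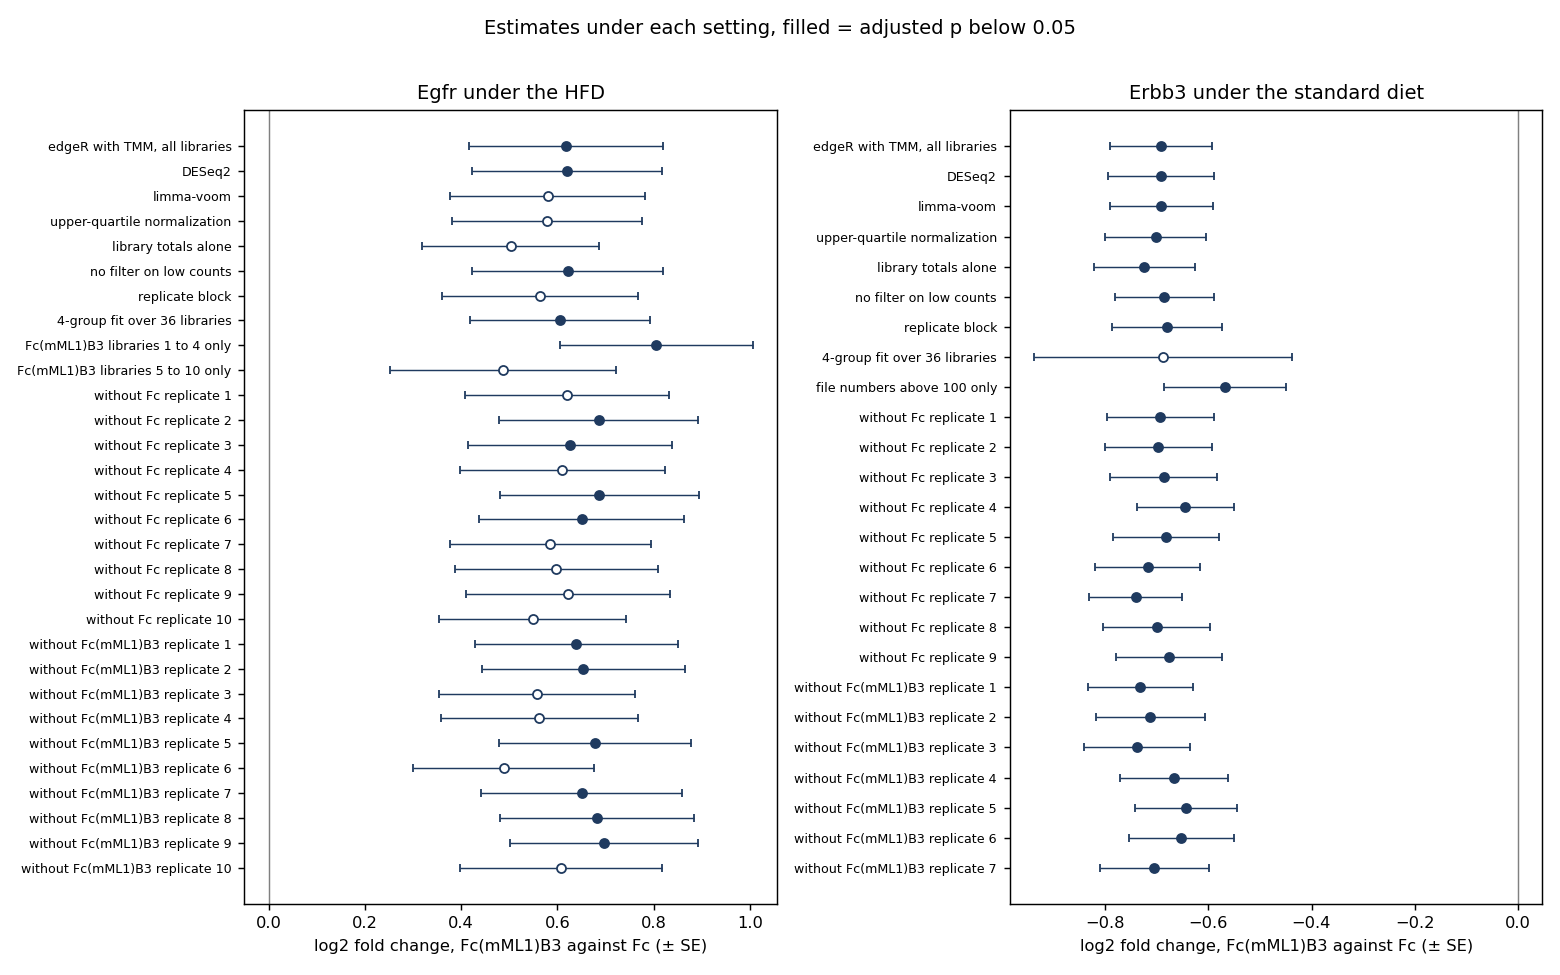
Log2 fold change of Fc(mML1)B3 against Fc (horizontal axes, bars are ± SE) for Egfr under the HFD and Erbb3 under the standard diet, with 1 line for each setting or left-out mouse and filled points at an adjusted p below 0.05. Egfr keeps its sign but is open in 10 of the 20 fits without 1 mouse, and Erbb3 is open only in the 4-group fit over 36 libraries.

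The second question was how the members stood between the diets. In the Fc mice, 5 of 8 members were called, against 47.9% of 14105 genes, with 4 higher and 1 lower under the standard diet. In the Fc(mML1)B3 mice, 3 of 8 were called, all higher, against 38.5% of genes. Both contrasts come from the same fit over 36 libraries, and diet cannot be told apart from experiment.

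Erbb3 differed most, with a log2 fold change of 1.39 ± 0.23 (SE, edgeR, adjusted p = 5.59e-06) in the Fc mice and 0.97 ± 0.24 (SE, adjusted p = 0.00154) in the Fc(mML1)B3 mice. In the Fc mice 8 of 9 standard diet livers were above all HFD livers, and mean levels were 72.7 ± 10.6 (SD, n = 9) against 27.6 ± 15.4 CPM (SD, n = 10). Egfr was higher by 1.03 ± 0.19 (SE, adjusted p = 3.89e-05) and 0.64 ± 0.20 (SE, adjusted p = 0.0121), and Lrig1 by 0.55 ± 0.10 (SE, adjusted p = 2.1e-05) and 0.35 ± 0.10 (SE, adjusted p = 0.00722). Tgfa was higher in the Fc mice by 0.56 ± 0.10 (SE, adjusted p = 1.63e-05) and had 0.14 ± 0.10 (SE, adjusted p = 0.307) in the Fc(mML1)B3 mice. Hbegf was lower in the Fc mice by -0.62 ± 0.17 (SE, adjusted p = 0.00345) and had -0.32 ± 0.19 (SE, adjusted p = 0.181) in the Fc(mML1)B3 mice. Errfi1 did not pass the threshold in either treatment, with 0.39 ± 0.19 (SE, adjusted p = 0.0786) and 0.40 ± 0.20 (SE, adjusted p = 0.108). Between the diets, 3 of 6 cholangiocyte, 4 of 6 stellate cell, 3 of 6 macrophage, 1 of 3 neutrophil and 4 of 5 lymphocyte markers were lower in the standard diet Fc mice, where 24.6% of all genes were lower. There 2 of 6 hepatocyte and 1 of 6 endothelial markers were higher, against 23.3% of all genes. In the Fc(mML1)B3 mice, where 17.9% of all genes were lower, so were 3 of 6 cholangiocyte, 3 of 6 stellate cell, 2 of 6 macrophage, 1 of 3 neutrophil and 1 of 5 lymphocyte markers. Higher were 1 of 6 hepatocyte, 1 of 6 endothelial and 1 of 5 lymphocyte markers, against 20.7% of all genes.

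The rest of the ErbB system was followed through 32 other genes, of which 28 passed the filter in the HFD experiment and 29 in the other. Under the HFD 1 was called, lower, against 6.68% of all genes lower and 8.14% higher. In the standard diet mice 2 were higher and 5 were lower, against 8.56% and 7.55%. For a difference in effect between the diets, 2 of 29 were called, against 9.06% of all genes.

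Among the other receptor and ligands, betacellulin (Btc), an EGFR and ErbB4 ligand, was lower with Fc(mML1)B3 under both diets. Its level under the HFD was 3.69 to 6.55 CPM (median 5.22) in the Fc mice and 1.96 to 4.68 (median 3.34) in the Fc(mML1)B3 mice. All 10 Fc(mML1)B3 mice were below the Fc median and 6 were below all Fc mice. The change on the log2 scale was -0.63 ± 0.16 (SE, edgeR, adjusted p = 0.00829). With Fc(mML1)B3 libraries 1 to 4 alone it was -0.75 ± 0.22 (SE) and the call was lost (adjusted p = 0.0526). The standard diet levels were 4.39 to 6.30 CPM with Fc and 3.06 to 5.88 with Fc(mML1)B3, where 5 of 7 were below all Fc mice. The log2 fold change there was -0.51 ± 0.13 (SE, edgeR, adjusted p = 0.00956), and the call was lost with the 4 Fc mice of the shared set alone, where the log2 fold change was -0.51 ± 0.17 (SE, adjusted p = 0.0800).

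Nrg4 encodes neuregulin 4, a ligand of ErbB4, and shares 166 exonic bases with Fbxo22. In the standard diet mice it was at 7.20 to 13.7 CPM (median 9.46) in the Fc mice and at 13.5 to 24.1 (median 16.0) in the Fc(mML1)B3 mice. Of the 7 Fc(mML1)B3 mice, 6 were above all Fc mice. Its log2 fold change was 0.82 ± 0.12 (SE, edgeR, adjusted p = 1.19e-04). Under the HFD it was at 5.98 to 30.3 CPM against 5.90 to 21.7 CPM with a log2 fold change of -0.23 ± 0.27 (SE, adjusted p = 0.593). The interaction term was 1.07 ± 0.33 (SE, adjusted p = 0.0342), and this call was lost with limma-voom (adjusted p = 0.0597) and without standard diet Fc mice 8 and 9 (1.05, adjusted p = 0.0626). Per kilobase, Nrg4 was at 5.02 to 8.89 CPM over the 4 group means, above Tgfa in 3 of the 4 groups. Erbb4, the receptor of neuregulin 4, had 0 to 22 reads per library and did not pass the threshold under the standard diet (-0.53 ± 0.29 (SE), adjusted p = 0.233). Nrg1 had -0.97 ± 0.41 (SE, adjusted p = 0.116) in the HFD experiment and -0.40 ± 0.26 (SE, adjusted p = 0.323) in the other, and Ereg, which encodes epiregulin, had -0.08 ± 0.30 (SE, adjusted p = 0.885) and 0.06 ± 0.26 (SE, adjusted p = 0.914). Epgn, Nrg2 and Nrg3 did not pass the filter, and Nrg3 had 0 reads in all 36 libraries.

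Of the 4 genes of ligand release, Adam17, which encodes a sheddase of several ErbB ligands, was slightly lower under the standard diet (-0.16 ± 0.05 (SE), edgeR, adjusted p = 0.0275). That call was lost without Fc mouse 9 (adjusted p = 0.0504) or Fc(mML1)B3 mouse 2 (0.0624) or 5 (0.0628), or with no filter on low counts (-0.15, adjusted p = 0.0551). Under the HFD, 0 of the 4 were called by edgeR, with unadjusted p below 0.05 for Rhbdf1 (-0.32 ± 0.13 (SE), p = 0.0177) and Rhbdf2 (0.25 ± 0.10 (SE), p = 0.0198), which encode partners of ADAM17. Of the 7 adaptor and exchange factor genes, 0 were called under the HFD by edgeR, with unadjusted p below 0.05 for Ptpn11 alone (0.18 ± 0.07 (SE), p = 0.0207). Among them Gab1, a docking protein that also binds Met, was higher under the standard diet. It was at 14.4 to 19.1 CPM in the Fc mice and 21.1 to 25.97 in the Fc(mML1)B3 mice, with no overlap, as for 2.93% of all genes tested. The change on the log2 scale was 0.44 ± 0.06 (SE, edgeR, adjusted p = 6.59e-05), it was -0.18 ± 0.11 (SE, adjusted p = 0.298) under the HFD, and the interaction term was 0.63 ± 0.14 (SE, adjusted p = 0.00224). Sos1, a Ras exchange factor, was lower under the standard diet (-0.24 ± 0.06 (SE), edgeR, adjusted p = 0.0132). Of the 13 negative regulators, 2 were lower under the standard diet, the ubiquitin ligase gene Cblb (-0.49 ± 0.12 (SE), edgeR, adjusted p = 0.0075) and the Ras-ERK inhibitor gene Spred2 (-0.39 ± 0.09 (SE), edgeR, adjusted p = 0.00689). Sos1, Cblb and Adam17 lost their calls with the 4 Fc mice of the shared set alone, with log2 fold changes of -0.17, -0.43 and -0.19 (adjusted p = 0.0975, 0.107 and 0.0845). Spred2, Sos1 and Adam17 lost theirs in the fit over 36 libraries, with log2 fold changes of -0.38, -0.23 and -0.16 (adjusted p = 0.337, 0.204 and 0.283). The Sprouty genes Spry1, Spry2 and Spry4 and the ERK phosphatase gene Dusp6 were called under neither diet.

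The median log2 fold change was 0.05 over the 7 members tested under the HFD and -0.02 over the 8 tested under the standard diet, and it was -0.01 over all genes in both. It was -0.43 and -0.40 over the other receptor and ligands, -0.01 and -0.13 over the genes of ligand release, -0.03 and -0.07 over the adaptors, and -0.05 and -0.08 over the negative regulators. Met and Hgf passed the threshold under neither diet, at -0.13 ± 0.08 (SE, adjusted p = 0.309) and -0.13 ± 0.21 (SE, adjusted p = 0.701) under the HFD and 0.19 ± 0.07 (SE, adjusted p = 0.0562) and -0.22 ± 0.09 (SE, adjusted p = 0.0982) under the standard diet. Of 6 ERK response genes, 0 were called under either diet by edgeR, and 1 had an unadjusted p below 0.05 under each, Ier3 at -0.60 (p = 0.01995) under the HFD and Egr1 at -0.76 (p = 0.0475) with the standard diet.

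**Figure D4:**
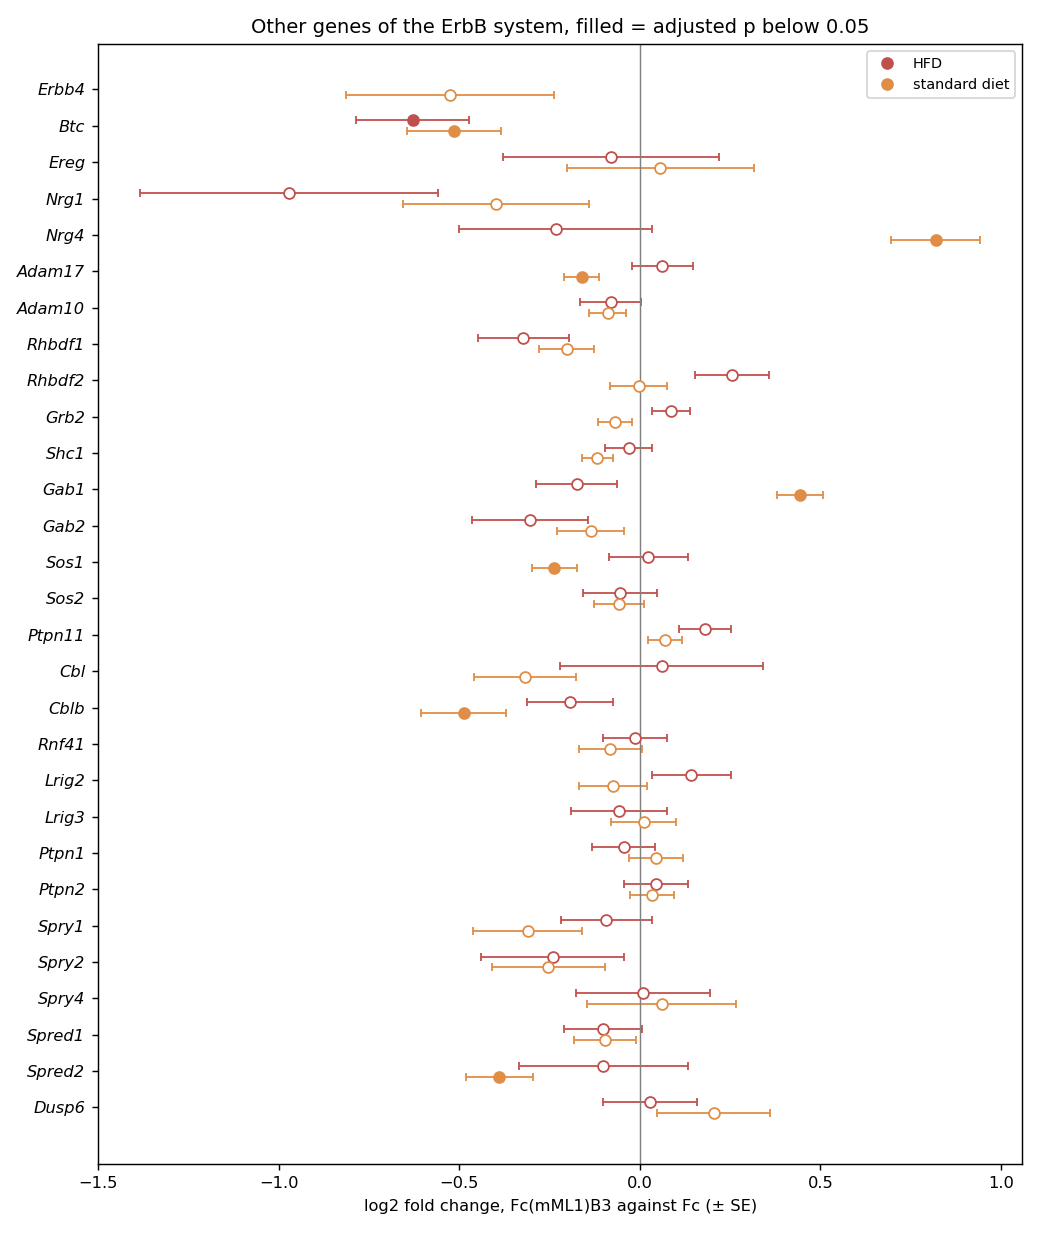
Log2 fold change of Fc(mML1)B3 against Fc (horizontal axis, bars are ± SE) for the 29 other genes of the ErbB system that passed the filter under at least 1 diet, with filled points at an adjusted p below 0.05. Btc is filled on the left side under both diets, and Nrg4 (0.82) and Gab1 (0.44) are filled on the right under the standard diet only.

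Between the diets the largest difference in these lists was in Cbl, which encodes the ubiquitin ligase that removes active EGFR. It was at 0.112 to 0.890 CPM in the HFD Fc mice and 2.73 to 5.67 in the standard diet Fc mice, with 3 to 25 and 56 to 136 reads per library. The log2 fold change was 2.66 ± 0.21 (SE, edgeR, adjusted p = 1.34e-12), and it was 2.31 ± 0.22 (SE, adjusted p = 1.98e-10) in the Fc(mML1)B3 mice. The groups did not overlap in either treatment, as for 9.42% and 9.9% of genes. In the same contrasts Ptpn11, which encodes the phosphatase SHP2, was higher by 0.63 ± 0.07 (SE, adjusted p = 8.16e-10) and 0.54 ± 0.07 (SE, adjusted p = 1.27e-07), and Sos1 by 0.79 ± 0.09 (SE, adjusted p = 1.68e-08) and 0.54 ± 0.10 (SE, adjusted p = 4.52e-05). Spry2 was lower, by -0.79 ± 0.18 (SE, adjusted p = 4.75e-04) and -0.79 ± 0.20 (SE, adjusted p = 0.00173). Over the 29 genes tested, 10 were higher and 7 lower in the Fc mice, and 9 and 3 in the Fc(mML1)B3 mice, against 23.3% and 24.6%, and 20.7% and 17.9%, of all genes.

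The third question was whether members varied together among mice of the same group. For this each log2 CPM was taken as its deviation from the group mean over the 36 libraries, and p-values came from permutations within groups. These relations share libraries, depth and scaling. With Egfr, 0 of 7 members had a Pearson r with an adjusted p below 0.05. The largest was with Erbb2, at r = -0.44 (permutation p = 0.0172, adjusted p = 0.12) and Spearman's rho = -0.59 (permutation p = 3.3e-04, adjusted p = 0.00231). Without the 2 mice farthest from the median of Egfr, HFD Fc(mML1)B3 mouse 6 and HFD Fc mouse 10, r was -0.47, and with library totals in place of TMM it was -0.29.

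All 28 pairs of members were then examined, a choice made after the values were seen. Erbb3 and Tgfa, at r = 0.57 (permutation p = 0.00131, adjusted p = 0.0367) and rho = 0.54 (permutation p = 0.00289, adjusted p = 0.0405), were the 1 pair that passed by both measures. Without the 2 mice farthest in Erbb3, r was 0.49. Within groups r was 0.71 and 0.66 in the HFD Fc and HFD Fc(mML1)B3 mice, and -0.01 and 0.32 in the standard diet groups.

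The members were also set beside the summed levels of the marker lists, 56 relations chosen after the values were seen, of which 6 passed by both measures. Erbb2 rose and fell with the summed cholangiocyte markers Krt7, Krt19, Epcam, Sox9, Spp1 and Cldn7, most of whose reads were from Spp1, at r = 0.78 (permutation p = 1e-05, the smallest that these permutations give, adjusted p = 2.8e-04) and rho = 0.70 (permutation p = 1e-05, adjusted p = 5.6e-04). Without the 2 mice farthest in the markers r was 0.72, and within the 4 groups it was 0.89, 0.78, 0.62 and 0.32. With Spp1 left out of the sum r was 0.77 (permutation p = 2e-05, adjusted p = 4.67e-04) and rho 0.68 (permutation p = 4e-05, adjusted p = 0.00112), with r = 0.60 without the 2 farthest mice, and with the single genes r was 0.55 (Sox9) to 0.81 (Cldn7). HFD Fc mice 1 and 4 had the highest Erbb2 of their group, 5.64 and 5.08 CPM, and the highest marker sums, 785 and 866 CPM, while Fc mouse 3 had the lowest of both, 0.843 and 168 CPM. HFD Fc(mML1)B3 mouse 5, with Erbb2 at 7.34 CPM, had the highest marker sum of its group, 856 CPM. Erbb2 also went with the stellate cell markers (r = 0.79, permutation p = 1e-05, adjusted p = 2.8e-04, rho = 0.67, permutation p = 4e-05, adjusted p = 0.00112, r = 0.66 without the 2 farthest mice) and against the hepatocyte markers (r = -0.73, permutation p = 8e-05, adjusted p = 0.00149, rho = -0.55, permutation p = 0.00194, adjusted p = 0.0272, r = -0.59 without the 2 farthest mice). Within groups r was 0.90, 0.84, 0.49 and -0.13 with the stellate cell markers and -0.71, -0.93, 0.07 and -0.47 with the hepatocyte markers, in the order HFD Fc, HFD Fc(mML1)B3, standard diet Fc and standard diet Fc(mML1)B3. With single genes of these lists r was -0.014 (Lrat) to 0.79 (Col3a1) for the stellate cell markers and -0.71 (Ttr) to -0.27 (Tat) for the hepatocyte markers.

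Erbb3 went against the neutrophil markers S100a8, S100a9 and Retnlg, at r = -0.57 (permutation p = 6.1e-04, adjusted p = 0.00854) and rho = -0.51 (permutation p = 0.00263, adjusted p = 0.0295), and r was -0.61 without the 2 farthest mice. With S100a9 left out of the sum r was -0.53 (permutation p = 0.0015, adjusted p = 0.0105), and rho, at -0.41 (permutation p = 0.0155, adjusted p = 0.0722), no longer passed. The other 5 relations passed by both measures also without the most abundant gene of their list, over 28 such relations. Within groups, with all 3 markers, r was -0.87 and -0.93 in the HFD Fc and HFD Fc(mML1)B3 mice and 0.10 and 0.30 in the standard diet Fc and Fc(mML1)B3 mice. In the HFD Fc group, mouse 7 had the lowest Erbb3, 9.31 CPM, and the highest neutrophil sum, 54.3 CPM, and mouse 9, the mouse with the lowest neutrophil sum, 4.96 CPM, had Erbb3 at 52.6 CPM. Tgfa went against the same markers (r = -0.52, permutation p = 0.00149, adjusted p = 0.0139, rho = -0.55, permutation p = 7e-04, adjusted p = 0.0131), with r = -0.33 without the 2 farthest mice, so that this relation rests in part on them. Tgfa also went against the macrophage markers (r = -0.49, permutation p = 0.00556, adjusted p = 0.0445, rho = -0.49, permutation p = 0.00474, adjusted p = 0.0388, r = -0.47 without the 2 farthest mice). Egfr, Errfi1, Hbegf, Lrig1 and Egf had no relation with a marker sum that passed by either measure.

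**Figure D5:**
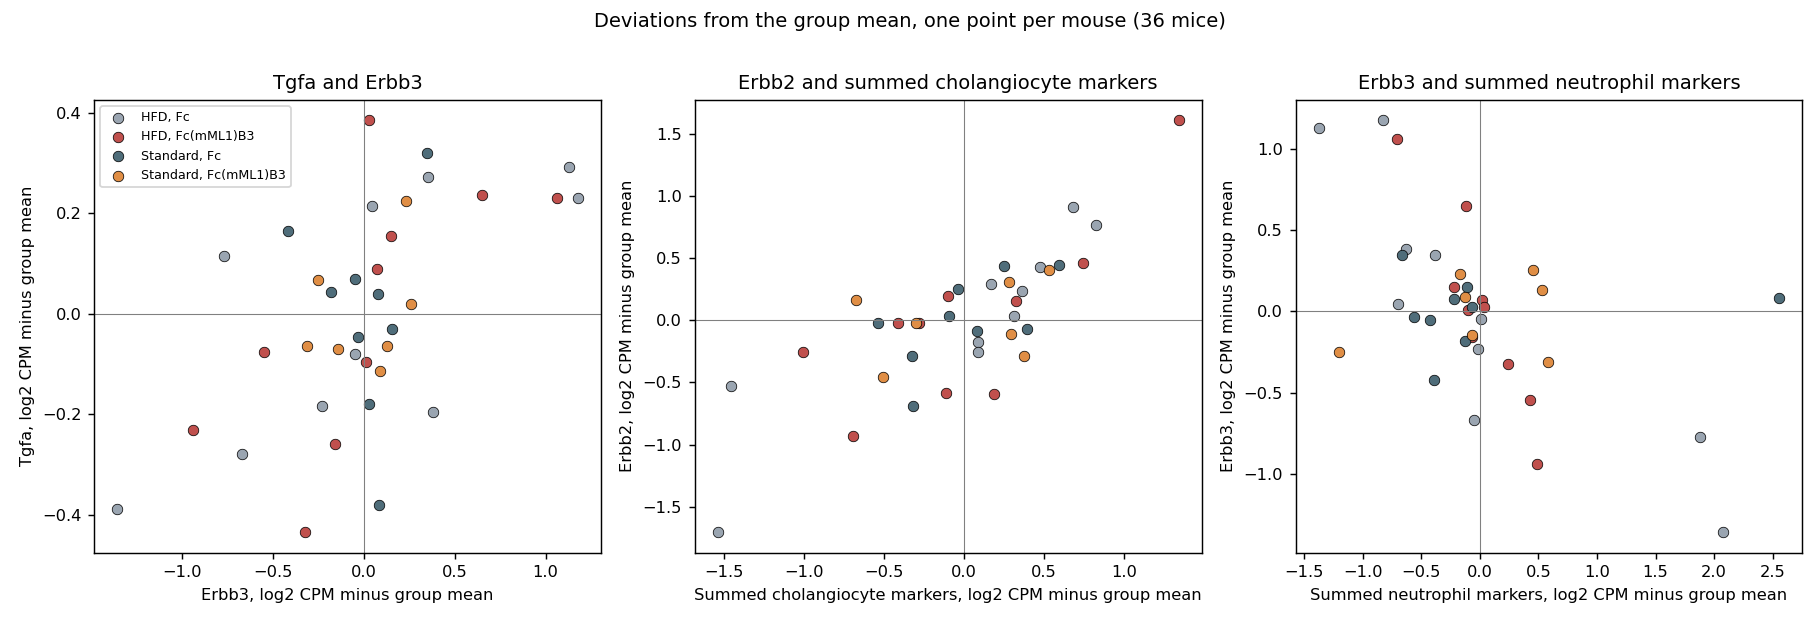
Deviations of log2 CPM from the group mean (both axes) in 36 mice, 1 point per mouse colored by group, for Tgfa against Erbb3, Erbb2 against the summed cholangiocyte markers and Erbb3 against the summed neutrophil markers. The middle panel rises (r = 0.78), and the right panel falls in the HFD groups (r = -0.87 and -0.93) but not in the standard diet groups.

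The genes whose deviations were most like those of Egfr over the 36 libraries, among 14104 genes, were A630076J17Rik (r = 0.73), C8b (0.72), Igf1 (0.71), Prpf6 (0.68) and Acsm1 (0.66). For Errfi1 they were Tsku (r = 0.76), Mfsd2a (0.74), St3gal5 (0.73), Clip1 (0.72) and Marveld1 (0.70). For the Egfr list r was 0.56 to 0.90 within each group, while for Tsku it was 0.06 in the standard diet Fc group. These are the highest of many values and are given as a description.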

How the data were processed

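The authors deposited 1 table of raw counts per mouse, 36 in all. Per the file headers and the submitters' processing notes, reads were trimmed with fastp, cleared of ribosomal RNA with Bowtie2 2.4.5, aligned to mm10 with STAR 2.7.10a and counted per gene with featureCounts of Subread 2.0.3. Each end of a pair was counted, strand was ignored, and reads on several genes or places were left out, which lowers overlapping genes. Groups came from the labels. The members and gene lists were chosen with earlier results of these data known.

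From the deposited counts, edgeR 4.0.16 in R 4.3.3 gave quasi-likelihood tests with TMM, filterByExpr and Benjamini-Hochberg adjustment over all genes tested, with calls at an adjusted p below 0.05. Each diet had its own fit, and the interaction and diet contrasts came from 1 fit of 4 groups. Standard errors are the size of each log2 fold change over the root of its F statistic. Log2 CPM for permutation tests (2-sided, exact under the standard diet, otherwise 100000 resamples) used a prior count of 2. Library totals were 14949035 to 28466853, so genes under about 1 CPM rest on few reads. No 2 libraries of a group were duplicates, as the lowest chi-square per degree of freedom over 147 pairs was 6.30. Each library is a separate mouse.

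All members were named, every gene of the list of other receptors and ligands, and at most 6 called genes per direction of the other lists. The 5 genes most like Egfr and Errfi1 were named by r. The alternatives were DESeq2 1.42.0, limma-voom (limma 3.58.1), other scalings, no filter, the study's thresholds, a replicate block, parts of the libraries and each library left out. On simulated data with 200 genes changed by 1 on the log2 scale, the fit recovered 92% under the HFD, 92.5% under the standard diet and 77% for the interaction, with 6.6%, 2.12% and 5.52% false calls. Smaller changes were not simulated. All tested members changed by less than 1 between Fc(mML1)B3 and Fc, so these shares do not tell how often such changes would be found.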

Additional observations from a re-analysis of the deposited data

Results flagged for a closer look

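Over 64 sets of mice (16 genes in 4 groups), 4 had an extreme mouse by Dixon's test, a share near the 1 in 20 that chance gives. These were Erbb2 at 7.34 CPM in HFD Fc(mML1)B3 mouse 5, with the next at 3.27 CPM, Lrig1 at 37.7 CPM in standard diet Fc mouse 5, with the next at 30.1 CPM and a neutrophil marker sum of 54.2 CPM in the same mouse, Egf at 1.06 CPM in standard diet Fc mouse 2, and Egf at 0 CPM in HFD Fc(mML1)B3 mouse 9. Egf had few reads in every library, so its flags rest on small counts. Without HFD Fc(mML1)B3 mouse 5, the log2 fold change of Erbb2 was -0.58. By the interaction term, 2 of the 29 other ErbB genes tested were called, Nrg4 and Gab1, against 9.06% of all genes. The log2 fold change between Fc(mML1)B3 and Fc mice differed between the 2 experiments by 1.07 ± 0.33 (SE) for Nrg4 (edgeR, adjusted p = 0.0342). That call was lost with limma-voom (adjusted p = 0.0597), without standard diet Fc mice 8 and 9 (0.0626) and with the replicate block on the remaining mice (0.133). For Gab1 the difference was 0.63 ± 0.14 (SE, adjusted p = 0.00224), a call kept under each of these. Diet cannot be told apart from experiment and file sets in both.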

How the results depend on the processing

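The members called under the HFD, 1 by edgeR, were 0 with limma-voom, upper-quartile scaling, library totals alone, the study's thresholds, the replicate block and Fc(mML1)B3 libraries 5 to 10 alone, and 0 to 1 without each mouse. Under the standard diet, 1 member was called, against 0 in the 4-group fit, 0 at an adjusted p below 0.1 and over 2-fold (a threshold added after seeing the data) and 1 to 2 without each mouse. For the interaction, DESeq2 and upper-quartile scaling called 1 in place of 0. The other ErbB genes called under the HFD, 1, became 0 with the study's thresholds and with Fc(mML1)B3 libraries 1 to 4 alone, 3 in the 4-group fit, and 1 to 3 without each mouse. Under the standard diet, 7 became 1 at an adjusted p below 0.05 and over 1.5-fold, 0 at an adjusted p below 0.1 and over 2-fold, 4 in the 4-group fit, 3 with the shared set alone, and 6 to 8 without each mouse. Members with a Pearson r to Egfr past the threshold went from 0 to 1 without the 2 farthest mice. The diet contrasts of members kept their calls except Errfi1 in the Fc mice with limma-voom (0.47, adjusted p = 0.04895).

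Some signs turned. HFD Lrig1 was -0.037 with library totals and -0.020 with libraries 1 to 4, HFD Errfi1 went from 0.21 to -0.00448 with libraries 5 to 10, standard diet Erbb2 was -0.00511 with library totals and -0.028 with the shared set, standard diet Egf was -0.066 with the block and -0.064 on the same mice without it, and the Errfi1 interaction was -0.011 with DESeq2 and -0.00988 without the filter. Without 1 mouse, standard diet Egf ranged from -0.045 to 0.26 and Erbb2 from -0.047 to 0.10. The causes were not tested.

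The replicate numbers did not pair the mice, as 1 of 10 pairs under the HFD and 0 of 7 under the standard diet had a correlation over 0.1, and 0 mice matched their own number best. The replicate block took Egfr under the HFD to 0.56 (adjusted p = 0.0956) and the genes called there from 1972 to 1294. The block fits of the standard diet and the interaction leave out Fc mice 8 and 9, whose numbers have no partner, and fits of the same mice without the block, added after seeing the data, are given beside them. Without and with the block, standard diet Btc was -0.51 (adjusted p = 0.0238) and -0.54 (0.0726), Adam17 -0.16 (0.0499) and -0.16 (0.1004) and the Nrg4 interaction 1.05 (0.0626) and 1.03 (0.133). The genes called were 1857 and 1302 under the standard diet (2186 with all mice) and 1076 and 794 for the interaction (1278 with all mice). The 4-group fit called 3133 and 785, HFD libraries 1 to 4 alone 705, the shared set alone 942 and the study's thresholds 178 under the HFD and 320 (1.5-fold) or 82 (2-fold) under the standard diet. Of the genes called under the HFD, 54.9% were higher with TMM, 44.6% with upper-quartile scaling and 27.3% with library totals, where the median log2 fold change moved from -0.01 to -0.10. For the diet in Fc mice, 48.6% were higher with TMM, 34.5% with upper-quartile scaling and 34.2% with library totals, with medians of -0.05, -0.13 and -0.13. The matching shares were 53.2%, 48.5% and 37.6% for the standard diet, 51.4%, 48.5% and 65.0% for the interaction, and 53.6%, 36.8% and 45.8% for the diet in Fc(mML1)B3 mice. Depth limits Egf, Areg and Erbb4, with at most 22 reads.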
